A study of Mus musculus with 18 samples.

Results

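*Stag1* and its paralog *Stag2*, 2 of the 18659 genes in the expression table, were followed through all 16 serum-grown libraries of a knockdown series in which *Stag1* itself was the siRNA target. Both genes were taken by name, with earlier results of these data known. The cells were male E14 mouse embryonic stem cells (mESCs) of 1 line, for which no altered allele is named, grown on gelatin with serum and LIF. RNA was collected 24 h after transfection and depleted of ribosomal RNA before sequencing.

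The 4 siRNAs to *Stag1* differed in what they were directed to. SP was a commercial pool and 3p a smaller mix whose siRNAs were all also listed for SP. 5p was a single custom duplex directed towards the 5′ end of the mRNA. SATS was an enzymatically prepared siRNA to the 5′ end of the transcript that starts at an upstream promoter used in mESCs. The controls were a scrambled siRNA (scr) in each of the 3 replicate sets, untreated cells in set 2 and an siRNA to luciferase in set 3. By the methods the luciferase siRNA was enzymatically prepared, like SATS, and scr was not. SATS against scr therefore also compares 2 types of siRNA, and the control of the same type is in set 3 only. Sets 2 and 3 held 1 library of each siRNA. Set 1 held 1 scr library and 3 SP libraries, called 1a, 1b and 1c, and the labels do not say how these 3 differ or whether any replicates were separate cultures, so p-values measure the spread between these libraries, which may be technical.

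Cohesin is a ring of SMC1, SMC3 and RAD21 that holds sister chromatids together and extrudes chromatin loops. A STAG protein is its further core subunit, which binds the ring through RAD21 and takes part in its loading on DNA, its contact with CTCF and its release. Somatic cells carry either STAG1 or STAG2 in a given complex, whereas STAG3 belongs to meiotic cohesin. Loss of one of STAG1 and STAG2 is tolerated by many cells, and loss of both is not.

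*Stag1* (ENSMUSG00000037286.15) lies on the plus strand of chromosome 9 at chr9:100597798-100959375 in GRCm38, and *Stag2* (ENSMUSG00000025862.14) on the plus strand of chromosome X at chrX:42149317-42277185. The longest annotated transcripts are alike, with 6186 bases in 34 exons for *Stag1* and 6171 bases in 34 exons for *Stag2*, and coding sequences of 3774 and 3804 bases. The annotation starts *Stag1* 45.65 kb upstream of the start of its longest transcript. This first annotated start lies inside the interval that the methods give for the SATS 5′ UTR. No annotated exon of another gene overlaps *Stag1*, and 1 antisense gene that is not in the table overlaps an exon of *Stag2*.

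Because each gene was read beside its paralog, the sequence the pair shares is shown first. The aligned coding sequences were identical at 70.6% of positions. The longest transcripts had 4 identical runs of at least 19 bases, all inside the coding sequence, and the longest of them had 23 bases. It lies in exon 12 of both genes, at chr9:100848680-100848702 and chrX:42229340-42229362, and reads as follows.

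Shared run: CTTGACAAAGAATATGATGTTGC

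Over all annotated transcripts of both genes, 2 of 12110 *Stag1* words of 40 bases and none of 50 or 75 bases occurred in *Stag2*. A whole read of 75 bases could therefore match only 1 of the paralogs exactly, although the handling of multiply aligned reads by the counting step was not checked here.

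The 5p duplex is shown because *Stag2* was lower with 5p than with any other siRNA. Its target in *Stag1* is in exon 4, in the coding sequence, inside the stretch of 22 bases at chr9:100738039-100738060 that is printed here with a few bases on either side. The 7 bases that pair with the seed (bases 2 to 8) of the guide strand are in capitals. The letters GTGGAAG, searched on the sense strand only, also occur at 2 other places in *Stag1*, both coding, and at 2 places in *Stag2*, in exon 7 within the coding sequence (chrX:42223272-42223293) and in exon 34 beyond it (chrX:42275316-42275337).

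Stag1 site 1: gaggagcaggtcGTGGAAGagc

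Stag2 site 1: ggctggtcctcaGTGGAAGaag

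Stag2 site 2: gtcgttttctaaGTGGAAGagg

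Upstream of these 7 letters the *Stag2* sites share little with the *Stag1* target. Downstream, both *Stag2* sites also share the next base, an a, and site 2 shares the g after it. The longest run of the 22 bases shown that occurs anywhere in *Stag2* transcripts is 9 bases, gtggaagag, as at site 2. The 7 letters are common: at least 1 match was present in 56.9% and at least 2 in 22.8% of 789 expressed genes whose longest coding transcript was within 10% of the length of *Stag2*. These shares count the 7 letters alone, anywhere in the transcript, and the longer matches were not counted. A match describes the letters, and no binding was measured.

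Set 1 held 9023224 to 14040830 reads on genes, of which *Rn45s*, the ribosomal precursor, took between 69.2% and 79.1%. Sets 2 and 3 held 32137666 to 45660840, of which *Rn45s* took between 14.7% and 23.9%. This left 1883691 to 4321867 reads on other genes in set 1, against 25978759 to 36332493 in sets 2 and 3. *Stag1* therefore rested on 82 to 301 reads a library in set 1 and on 828 to 5326 in sets 2 and 3, and *Stag2* on 261 to 847 and on 3004 to 12389. All 8 embryonic stem cell markers checked, among them *Pou5f1* and *Nanog*, had a median signal of at least 50. So did 3 of 4 fibroblast markers, and none of 4 primitive endoderm markers did. The summed signal of 4 fibroblast markers, mostly the collagen gene *Col1a1*, ranged from 2371 to 5400 across set 2, from 315 to 520 across set 3 and from 113 to 451 across set 1. Since these are bulk samples, fewer cells of a type and less RNA per cell cannot be told apart.

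*Stag1* RNA was low in every library treated with an siRNA to it, and SATS left more of it than the others. Levels are given as normalised read counts, the read count of a gene divided by a size factor for its library. The scr libraries of sets 1, 2 and 3 had signals of 2016, 1876 and 2113, the untreated library 1619 and the luciferase control 2200. SP gave 512, 627 and 660 in the 3 libraries of set 1, 406 in set 2 and 371 in set 3. The signal was 392 and 365 with 3p, 441 and 401 with 5p, and 947 and 1051 with SATS, in sets 2 and 3 in turn. No siRNA library overlapped a control library, and the SATS libraries lay between the controls and all others.

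**Figure D1:**
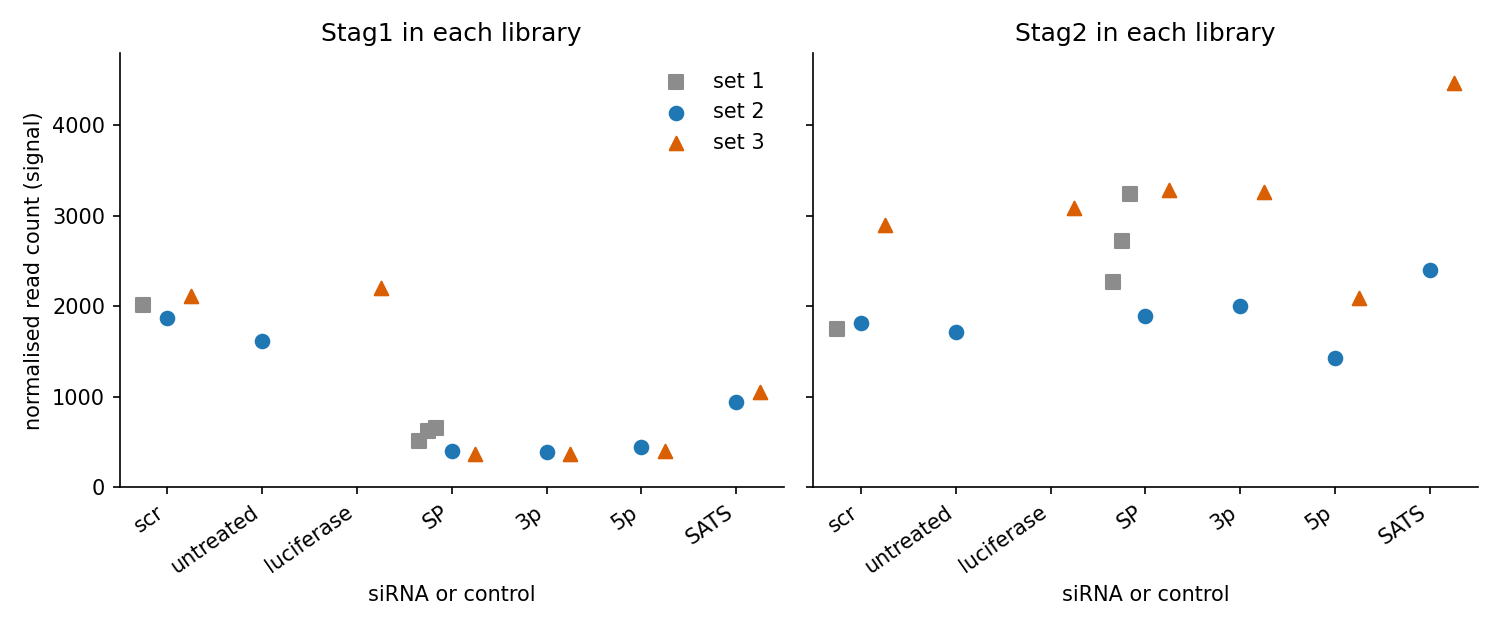
Normalised read count (y axis) of *Stag1* (left) and *Stag2* (right) in each of the 16 libraries, 1 point a library, by siRNA or control (x axis) and replicate set (colour and shape). *Stag1* is between 365 and 660 with SP, 3p and 5p, 947 and 1051 with SATS, and at least 1619 in the controls, while *Stag2* is higher in set 3 than in set 2 in every group that both sets hold.

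Taken as a percentage of scr of the same set, *Stag1* was at 21.6% and 17.5% with SP, 20.9% and 17.3% with 3p, and 23.5% and 19% with 5p, in sets 2 and 3 in turn. The means were 19.6% ± 2.9 for SP, 19.1% ± 2.6 for 3p and 21.3% ± 3.2 for 5p (SD, n = 2 each). SATS left 50.5% and 49.7%, a mean of 50.1% ± 0.5 (SD, n = 2). In the shallow set 1, SP left 25.4%, 31.1% and 32.8%, a mean of 29.8% ± 3.9 (SD, n = 3 libraries of 1 set), and the second deposited table, which holds set 1 alone, gave 25.4%, 31.4% and 32.9%. Exact 95% intervals, which cover counting error only, ran from 20.2% to 42% over the SP libraries of set 1 and from 16% to 25.3% over SP, 3p and 5p in sets 2 and 3. The untreated library was at 86.3% and the luciferase library at 104%.

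In sets 2 and 3 limma called the fall of *Stag1* with SP, 3p and 5p at an adjusted p under 0.05 over all genes. Against scr, *Stag1* had log2 fold changes of −2.36 ± 0.12 (SE) with SP, −2.39 ± 0.12 with 3p and −2.24 ± 0.12 with 5p, with limma adjusted p-values of 0.00116, 0.00103 and 0.00170. *Stag1* had the lowest log2 fold change of 11019 genes with a mean signal of at least 50 in each of these 3 comparisons and in that of SATS. Few genes were called at an adjusted p under 0.05 in this fit, 0.00606% of 16490 genes with SP, 0.00606% with 3p, 0.0121% with 5p and 0% with SATS, where 650 genes had an unadjusted p under 0.05. For SATS the log2 fold change of *Stag1* was −0.996 ± 0.12. This fall was also larger than its SE, but its limma adjusted p over all genes was 0.633. The fall with SATS passed once the replicate set was a block in the model, that is, when libraries were compared within their set (adjusted p = 0.00130, where 2.64% of genes were called). The block called 0.746% of genes with SP, 0.285% with 3p and 2.37% with 5p.

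When all 3 sets were used, libraries 1a, 1b and 1c entered as their mean, and *Stag1* then had a log2 fold change of −2.15 ± 0.20 in SP against scr (SE, n = 3 against 3). limma did not call it without the block (adjusted p = 0.225) or with it (adjusted p = 0.0534), although *Stag1* had the lowest fold change of 11057 genes. limma called 0% of 15970 genes in either fit, with 84 genes at an unadjusted p under 0.05 without the block and 935 with it. On whole reads recovered from the values, the adjusted p of *Stag1* was 2.0e-10 by edgeR with the block and 7.4e-14 by DESeq2 without it, and 0.258 by edgeR without the block. DESeq2 called 1 gene, edgeR 0 genes without the block (81 at an unadjusted p under 0.05) and 66 with it.

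*Stag2* was below scr with 5p only, and it did not follow *Stag1* with the other siRNAs. In sets 2 and 3 it was between 105% and 114% of scr with SP and 3p, lower with 5p than in every control of its set, and highest of its set with SATS. In set 1 it was above scr in all 3 SP libraries. Its signal in set 2 was 1811 in scr, 1719 in untreated cells, 1895 with SP, 2004 with 3p, 1434 with 5p and 2406 with SATS. In set 3 it was 2895 in scr, 3092 in the luciferase control, 3287 with SP, 3265 with 3p, 2092 with 5p and 4474 with SATS. The order 5p, scr, SP or 3p, SATS was thus the same in both sets, and SP and 3p changed places between them. Of the 8 siRNA libraries of these sets, 6 lay above both controls of their set and 2, both of 5p, lay below both.

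As a percentage of scr of the same set, *Stag2* was at 79.1% and 72.3% with 5p, a mean of 75.7% ± 4.9, and at 133% and 155% with SATS, a mean of 144% ± 15 (SD, n = 2 each). SP gave 105% and 114% and 3p gave 111% and 113%. The untreated and luciferase libraries, at 94.9% and 107%, show how far controls differed from scr. In set 1 the 3 SP libraries were at 130%, 156% and 185% of their scr library, which held 261 *Stag2* reads. Their exact 95% intervals were 112% to 152%, 136% to 180% and 158% to 217%. None holds 100%, but they cover counting error only and share that 1 scr library. The intervals of the untreated and luciferase libraries, 90.9% to 99.1% and 103% to 110%, also leave out 100%. Leaving out 100% therefore does not mark an effect of an siRNA to *Stag1*. The set 1 table gave 130%, 157% and 186%.

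**Figure D2:**
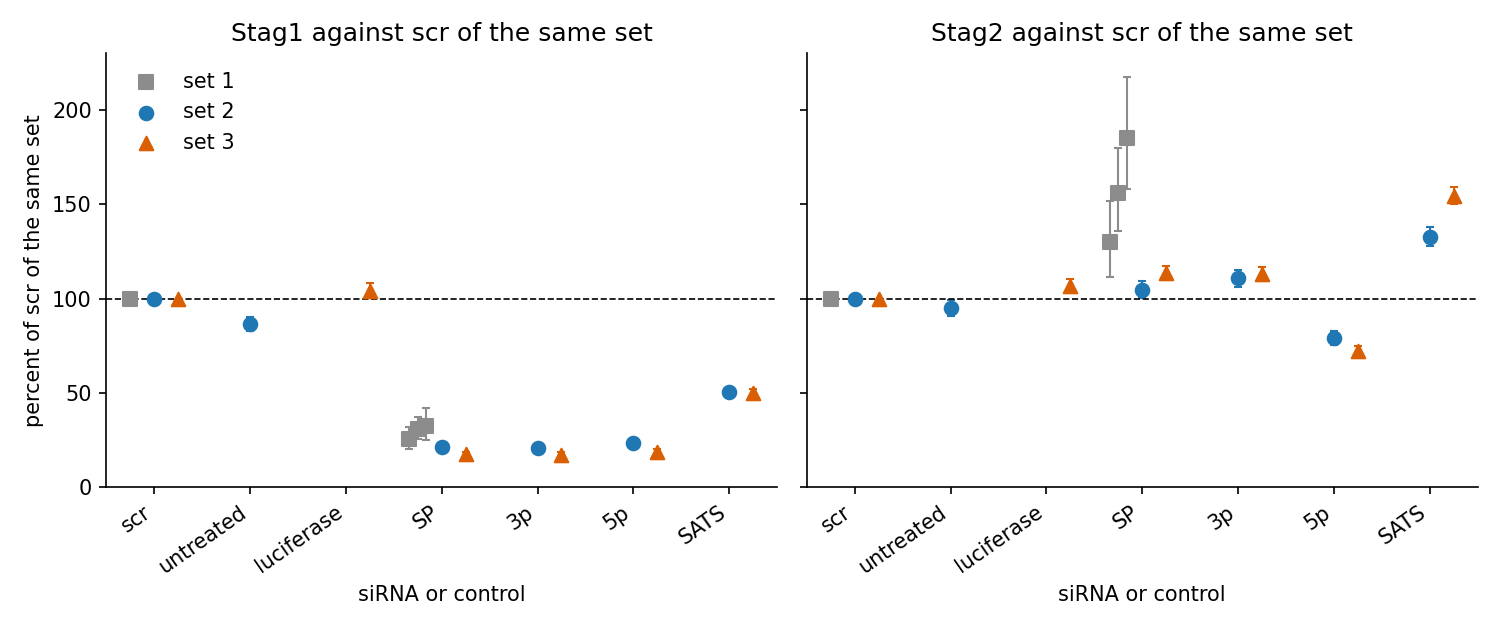
*Stag1* (left) and *Stag2* (right) as a percentage of scr within each set (y axis), by siRNA or control (x axis), 1 point a library with its exact 95% counting interval where it is wider than the symbol and the dashed line at 100%. *Stag1* lies between 17.3% and 32.8% with SP, 3p and 5p and near 50% with SATS, whereas *Stag2* is at 79.1% and 72.3% with 5p, at 94.9% in untreated cells, and reaches 133% and 155% with SATS.

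Whether these differences exceed the spread between libraries depended on comparing within sets. Without the block, the log2 fold changes of *Stag2* against scr were −0.40 with 5p, 0.52 with SATS, 0.12 with SP and 0.16 with 3p, each ± 0.43 (SE), and the limma adjusted p was 1.00 for all 4. With the replicate set as a block the SE was 0.084. *Stag2* then fell with 5p (adjusted p = 0.0229) and rose with SATS (adjusted p = 0.0154), in 2 of 2 sets each. These calls stand beside backgrounds of 2.37% and 2.64% of genes called, and by size *Stag2* was the 356th lowest of 11019 genes with 5p and the 257th highest with SATS. With SP and 3p it was not called (adjusted p = 0.599 and 0.536), with 95% intervals of −0.06 to 0.31 and −0.02 to 0.34. All 4 comparisons share the scr libraries.

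Both calls were lost when any of 3 libraries was left out, which leaves 1 library against 2, although the log2 fold changes kept their sign, from −0.51 to −0.29 with 5p and from 0.41 to 0.63 with SATS. Without scr of set 2, scr of set 3 or 5p of set 3, the adjusted p of the 5p call within sets was 0.212, 0.199 and 0.309, and without scr of set 2, scr of set 3 or SATS of set 3 that of the SATS call was 0.0913, 0.242 and 0.330. With the untreated and luciferase libraries counted as further controls, a setting chosen after the data were seen, the log2 fold changes within sets were −0.41 (adjusted p = 0.00172) and 0.51 (adjusted p = 0.000887).

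SP over 3 sets gave a log2 fold change of 0.30 ± 0.27 (SE) for *Stag2* with an adjusted p of 1.00, and 0.759 with the block. The excess was larger in set 1 than in the deeper sets, where SP was at 109% ± 6 of scr (SD, n = 2). With all 4 siRNAs pooled no difference was detected either. Over 8 siRNA and 4 control libraries, *Stag2* was 0.09 higher on the log2 scale with an siRNA, the mean over sets (two-sided exact permutation test within sets, p = 0.649, where the smallest p of 225 arrangements is 0.00444). Leaving out 1 library moved this value from 0.012 without SATS of set 3 to 0.19 without 5p of set 3, with permutation p-values of 0.960 and 0.240. Since 5p and SATS lay on opposite sides of scr, the pooled value averages over them, and without SATS it was −0.04 (two-sided exact permutation test, p = 0.790).

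The siRNAs were then compared with each other, so that knockdowns of like depth could be read side by side. For *Stag1* the 3 pairs among SP, 3p and 5p were not called, with differences of 0.04 (SP minus 3p), −0.12 (SP minus 5p) and −0.15 (3p minus 5p) on the log2 scale. Their 95% intervals within sets were −0.17 to 0.24, −0.33 to 0.09 and −0.36 to 0.05. SATS left more *Stag1* than SP by 1.36, than 3p by 1.40 and than 5p by 1.24 on the log2 scale. Without the block the adjusted p-values were 0.0427, 0.0562 and 0.0656, and with it 6.4e-06, 1.8e-05 and 2.0e-05.

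For *Stag2* 5 of the 6 pairs were called within sets. 5p was lower than SP by 0.53 (adjusted p = 0.00280), lower than 3p by 0.56 (adjusted p = 0.00247) and lower than SATS by 0.92 (adjusted p = 5.9e-05). SATS was higher than SP by 0.39 (adjusted p = 0.0136) and higher than 3p by 0.36 (adjusted p = 0.0368). SP and 3p, which share siRNAs, differed by −0.04, with a 95% interval of −0.22 to 0.15 and an adjusted p of 0.991. Without the block none of the 6 pairs of *Stag2* was called, with adjusted p-values from 0.945 to 1.00.

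The share of all genes called within sets was 5.76% for SP against 5p, 3.26% for 3p against 5p, 6.42% for 5p against SATS, 9.42% for SP against SATS, 3.06% for 3p against SATS and 0.097% for SP against 3p. Without the block it was 0.0121% for SP against SATS, 0.00606% for 5p against SATS and 0% for the other 4 pairs. Of all genes with a mean of at least 50, *Stag2* ranked 32nd lowest of 11019 in 5p against SATS. Its difference between 5p and SATS was, of its 5 pair calls, the only one that held within sets when any 1 of the 10 libraries was left out (adjusted p at most 0.00230).

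**Figure D3:**
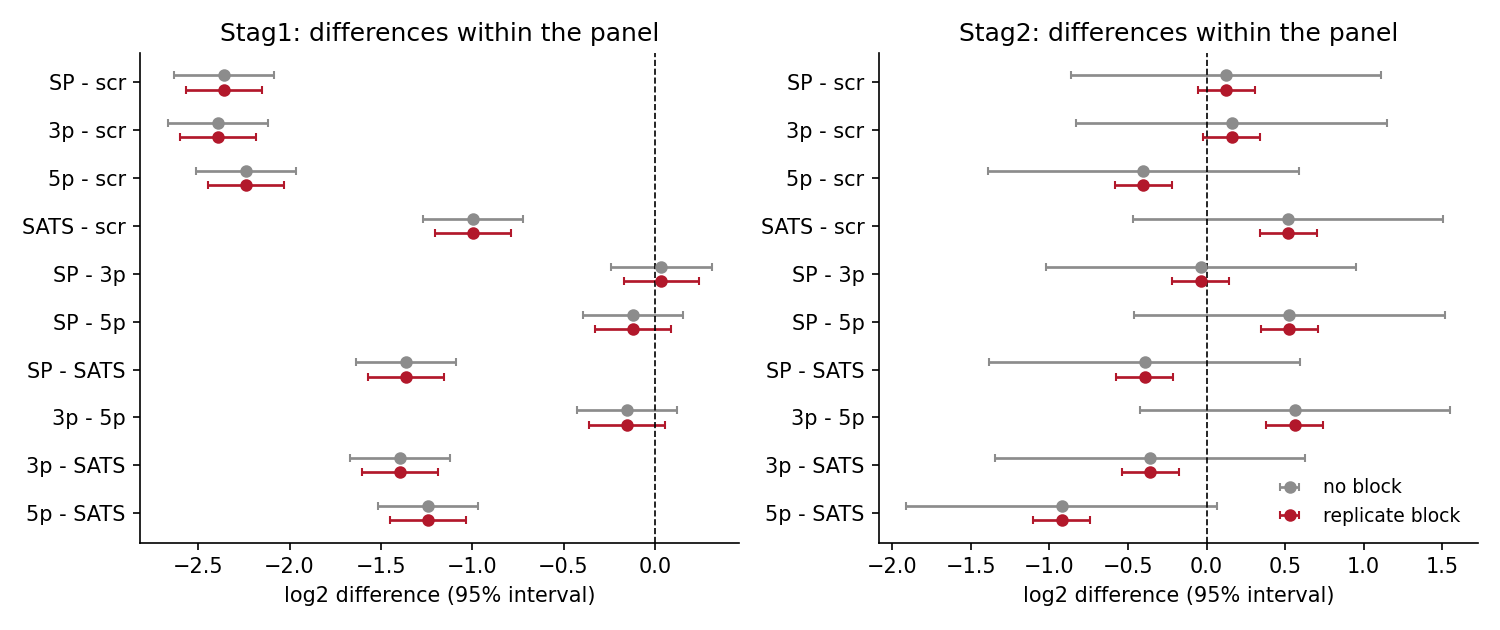
Log2 differences (x axis) of *Stag1* (left) and *Stag2* (right) for the 10 comparisons among scr, SP, 3p, 5p and SATS in sets 2 and 3 (y axis, first minus second), with 95% intervals from the fit without the block (grey) and with each replicate set as a block (red). The intervals of *Stag2* narrow from an SE of 0.43 to 0.084 with the block, and those of 5p and SATS against scr then lie on opposite sides of 0.

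The width of the *Stag2* interval without the block came with a difference between sets. *Stag2* was higher in set 3 than in set 2 by 1.60-fold in scr, 1.73-fold with SP, 1.63-fold with 3p, 1.46-fold with 5p and 1.86-fold with SATS. *Stag1* moved by 1.13-fold in scr and 1.11-fold with SATS and was at 0.913, 0.931 and 0.909 times its set 2 signal with SP, 3p and 5p. The median difference between the sets over 11058 genes was between −0.02 and 0.00 on the log2 scale in these groups. The fibroblast marker sum was lower in set 3 than in set 2, as given above, and its part in the difference was not tested.

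The balance of the paralogs shifted towards *Stag2* in every siRNA library. Levels of different genes were compared per kb of merged exon length, which is 11.781 kb for *Stag1* and 8.273 kb for *Stag2*. On this scale *Stag2* exceeded *Stag1* by 1.23-fold, 1.38-fold and 1.95-fold in scr of sets 1, 2 and 3, by 1.51-fold in untreated cells and by 2.00-fold in the luciferase control. The order in controls depends on the length taken, since with the length of the longest transcript *Stag1* exceeded *Stag2* in scr of sets 1 and 2 by 1.15-fold and 1.03-fold. In the 11 siRNA libraries *Stag2* was the higher gene with any of the 3 lengths tried.

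With SP *Stag2* exceeded *Stag1* per kb by 6.31-fold, 6.19-fold and 6.98-fold in set 1, 6.65-fold in set 2 and 12.6-fold in set 3. The excess was 7.28-fold and 12.7-fold with 3p, 4.62-fold and 7.43-fold with 5p, and 3.62-fold and 6.06-fold with SATS. Against scr of the same set, which does not depend on the length, the ratio of *Stag1* to *Stag2* was 4.84-fold and 6.47-fold lower with SP, 5.30-fold and 6.53-fold lower with 3p, 3.36-fold and 3.81-fold lower with 5p, and 2.63-fold and 3.11-fold lower with SATS. 5p thus left the ratio less changed than SP and 3p in both sets at a like level of *Stag1*, its *Stag2* being lower. The ratio and the sum below are built from the members and were not tested.

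The summed signal of both genes per kb, a measure of all somatic STAG RNA, was lowest with 5p. It was 55.7% and 54.2% of scr of the same set, a mean of 55.0% ± 1.1 (SD, n = 2). SP left 69.7% and 81.0% (mean 75.3% ± 8.0), and 3p 72.9% and 80.4% (mean 76.6% ± 5.3). With SATS the sum was 98.2% and 119% (mean 109% ± 15), although *Stag1* was at 50.5% and 49.7% in these libraries. The sum depends on the length taken. With the length of the longest transcript it was 91.0% and 110% with SATS, and 62.4% and 73.1% with SP. The untreated and luciferase libraries were at 91.3% and 106%. The 3 SP libraries of set 1 spread from 83.2% to 117%. All 6 SP, 3p and 5p libraries of sets 2 and 3 lay below the controls of those sets, and the 2 of 5p lay below the other 4.

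**Figure D4:**
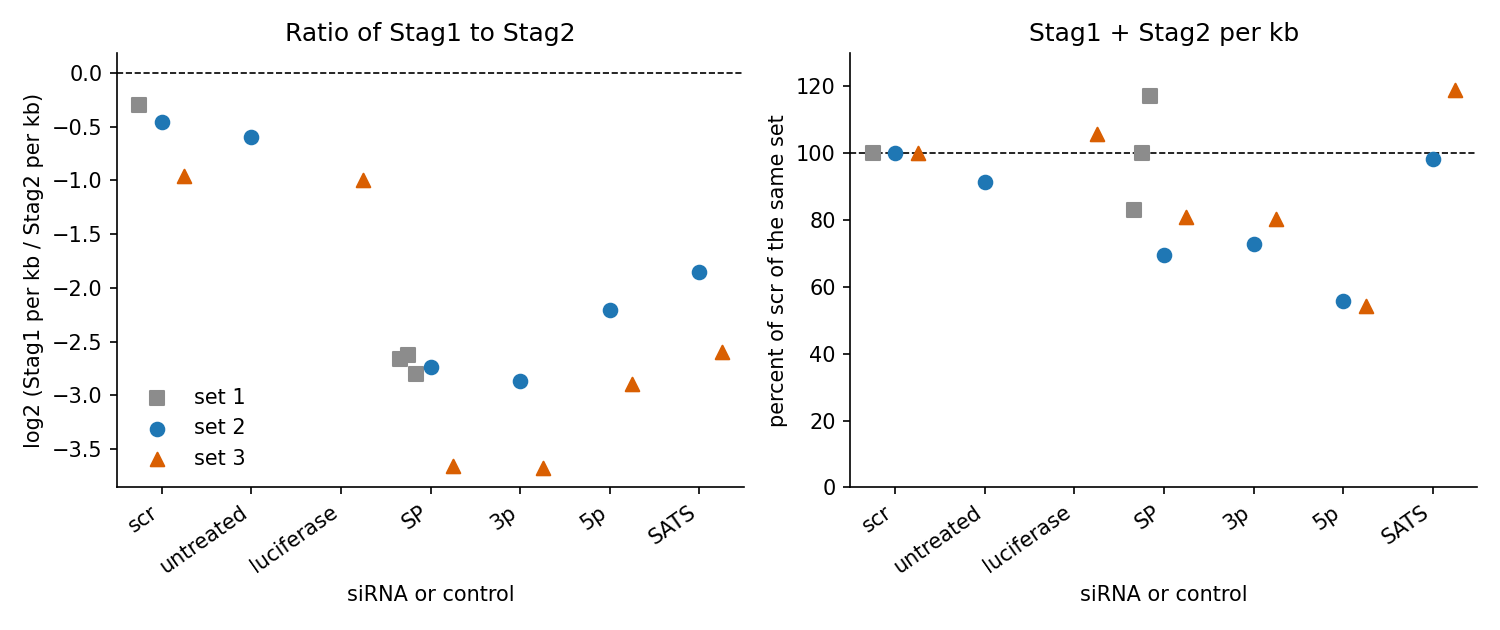
Left, log2 ratio of *Stag1* to *Stag2*, each per kb of merged exon length (y axis), and right, the sum of both per kb as a percentage of scr of the same set (y axis), by siRNA or control (x axis), 1 point a library. The ratio is lowest with SP and 3p in set 3, at −3.66 and −3.67, and the sum is lowest with 5p, at 55.7% and 54.2%, and at 98.2% and 119% with SATS.

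*Stag3*, the meiotic paralog, was present in all 16 libraries. In sets 2 and 3 its signal was 397 and 280 in scr, 374 and 368 with SP, 402 and 480 with 3p, 408 and 333 with 5p, and 299 and 275 with SATS. In set 1 it was 1065 in scr and 1594, 1618 and 797 with SP, all above the highest library of the later sets, 3p of set 3. Against scr it was not called with any siRNA, with or without the block, and within sets the only pair called was 3p against SATS (log2 difference 0.61, adjusted p = 0.0309). Per kb of merged exon length *Stag3* exceeded the remaining *Stag1* in all 6 SP, 3p and 5p libraries of sets 2 and 3, but in 3 of 6 when coding length was used.

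Of the other cohesin genes, 2 were called against scr, both with SATS and within sets only. The list held 17 genes for the ring, its meiotic forms, its loader, its release and protection factors, its acetylation cycle and *Ctcf*, with *Stag3* among them, and all 17 were tested. Without the block 0 of 17 were called against scr with any siRNA, beside at most 0.0121% of all genes. Within sets 0 of 17 were called with SP, 3p and 5p, beside 0.746%, 0.285% and 2.37% of all genes. Shares this small do not let 0 of 17 set the list apart. With SATS 2 rose and 0 fell, beside 2.64% of all genes called in either direction. Of the 16490 genes tested, 313 rose and 123 fell. The largest fold change of the list against scr was 0.75 on the log2 scale, for *Smc1b* with 5p (limma adjusted p = 0.0598 within sets). Its signal was 35 in scr and 54 with 5p in set 2, and 17 and 32 in set 3. The median log2 fold changes of the list were −0.03 with SP, −0.00 with 3p, 0.10 with 5p and 0.02 with SATS, and those of all genes between −0.0041 and 0.012.

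Both genes that rose with SATS encode acetyltransferases that act on SMC3. *Esco1* was at 778 with SATS and 570 in scr in set 2, and at 1028 and 700 in set 3 (log2 fold change 0.50, adjusted p = 0.0269 within sets). *Esco2* was at 1353 and 1063 in set 2, and at 1928 and 1408 in set 3 (log2 fold change 0.40, adjusted p = 0.0269 within sets). Both calls were lost without scr of set 2, scr of set 3 or SATS of set 3, with adjusted p-values from 0.123 to 0.361 for *Esco1* and from 0.137 to 0.371 for *Esco2*, and that of *Esco1* also without SATS of set 2 (0.0561). Of the ring genes, *Smc1a* was at 1678 in scr of set 2 and between 2191 and 2273 with the 4 siRNAs of that set, but between 1712 and 1881 with the siRNAs against 1845 in scr in set 3, and it was not called.

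The genes whose pattern was most like that of each paralog were ranked by Pearson correlation over the 12 libraries of sets 2 and 3, after subtracting the mean of each set, among 11025 other genes with a mean of at least 50. The ranking is a description, since the libraries share scr and the genes were picked as the highest of many. For *Stag1* they were *Abca1*, a cholesterol exporter (r = 0.938), *Entpd7* (0.926), *Rad1*, of the DNA damage checkpoint clamp (0.922), the kinase gene *Sik1* (0.916) and the transcription factor gene *Tfap2c* (0.903). *Abca1* was lower than scr by means of 0.71 with SP, 0.65 with 3p, 0.69 with 5p and 0.50 with SATS on the log2 scale.

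For *Stag2* they were *Arl4a*, a small GTPase (r = 0.987), *Bzw1* (0.964), *Ndufa5*, a subunit of respiratory complex I (0.963), *Tmem9b* (0.963) and *Pi4k2b*, a phosphatidylinositol kinase (0.957). *Arl4a* differed from scr by means of −0.37 with 5p, 0.49 with SATS, 0.05 with SP and 0.12 with 3p on the log2 scale, against −0.40, 0.52, 0.12 and 0.16 for *Stag2*. *Ndufa5* had the widest span of the 5, from −1.0 with 5p to 0.82 with SATS. All 5, being picked for their likeness to *Stag2* in these libraries, were lower with 5p and higher with SATS than scr on average.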

How the data were processed

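Signal values for 16 libraries were taken from the table the authors deposited, in which featureCounts reads (HISAT2 on mm10, 75-base reads, reverse-stranded counting stated for paired-end libraries) were divided by DESeq2 1.14.1 size factors. A second deposited table, by edgeR 3.16.5, gives signal scaled to the effective library size for the 4 libraries of set 1. Every value of the first table came out as a whole number of reads (100% of values, tolerance 0.01), so read numbers were recovered. The 2 samples grown in 2i were not analysed here.

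limma 3.58.1 (R 4.3.3) was fitted to log2(value + 1) after genes summing to under 10 were left out, with Benjamini-Hochberg adjustment over all genes, in 1 fit of SP against scr over 3 sets and 1 of the 10 scr, SP, 3p, 5p and SATS libraries of sets 2 and 3. Fold changes are on this scale. The fit without a block was the main one. The labels number the replicate sets, and deviations of same-numbered libraries from their group means correlated at 0.80 (0.77 to 0.82, 3 pairs) and 0.86 (0.81 to 0.93, 20 pairs) across genes. With 2 libraries a group in the second fit, deviations in set 3 mirror those in set 2, so each correlation of set 2 recurs in set 3 among the 20. The set was therefore taken to pair the samples, and the blocked value is given where it changes a call. edgeR 4.0.16 and DESeq2 1.42.0 were run on the recovered reads. The code was tested on simulated data. Lengths, positions and sequences came from the GENCODE M21 annotation of GRCm38, read with Python 3.11.15, and coding sequences were aligned with Biopython 1.88. Intervals on percentages are exact and cover counting error only. Genes named were *Stag1*, *Stag2*, the cohesin list, the marker lists and the 5 genes most like each member. The members and lists were chosen with earlier results of these data known.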

Additional observations from a re-analysis of the deposited data

Results flagged for a closer look

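The *Stag1* to *Stag2* ratio per kb in SP of set 3 stood far from the other 4 SP libraries. Its log2 value was −3.66, against −2.73 in set 2 and −2.80, −2.66 and −2.63 in set 1, so that its gap to the nearest library was 0.831 of the whole range of the 5, where 0.71 is the limit at the 95% level. Chance alone flags about 1 group in 20, and 7 quantities of SP were looked at. The limit takes the 5 as separate samples, although 3 are from set 1. The ratio of scr was also lowest in set 3, at −0.96 against −0.30 and −0.46 in sets 1 and 2, and relative to scr of the same set the gap was 0.465 of the range, under the limit, a comparison chosen after the data were seen. The 3p library of set 3 had a like value of −3.67, and its *Stag2* signal of 3265 and *Stag1* signal of 365 were close to the 3287 and 371 of SP in that set.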

How the results depend on the processing

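The fall of *Stag1* with SP, 3p and 5p in sets 2 and 3 was called under all 21 alternatives to each. Its value with SATS was called under DESeq2 (−0.99), edgeR with the replicate block (−0.99) and the limma replicate block (−0.996), and over 3 sets the SP value was called under DESeq2 (−2.13), edgeR with the replicate block (−2.18) and with library 1a alone for set 1 (−2.23). For *Stag2* the block gave the calls with 5p (−0.40, edgeR −0.41) and SATS (0.52, edgeR 0.53), and the pair calls of *Stag2* (SP minus 5p 0.53, SP minus SATS −0.39, 3p minus 5p 0.56, 3p minus SATS −0.36, 5p minus SATS −0.92) and *Stag1* (3p minus SATS −1.40, 5p minus SATS −1.24). Leaving out 1 library at a time with the block, a setting chosen after the data were seen, *Stag2* ranged from −0.51 to −0.29 with 5p, 0.41 to 0.63 with SATS, 0.45 to 0.67 for 3p minus 5p (adjusted p = 0.0731 without 5p of set 3), 0.42 to 0.64 for SP minus 5p (0.0745 without 5p and 0.0638 without SP of set 3), −0.50 to −0.29 for SP minus SATS (0.210 without SATS of set 3, and 0.129 and 0.0617 without SP of set 2 and 3) and −0.47 to −0.25 for 3p minus SATS, which was lost in 5 of 10 cases. SP minus 3p ranged from −0.080 to 0.0094 for *Stag2* and −0.039 to 0.11 for *Stag1*. Without the block, leaving out 1 library turned the sign of *Stag2* with SP (−0.27 to 0.52) and 3p (−0.19 to 0.51). The pooled *Stag2* value was −0.045 without SATS. With the longest transcript or coding length the log2 ratio of *Stag1* to *Stag2* in scr, −0.58 on merged exons, was −0.070 or −0.055, and the sum 68.8% or 68.5% of scr with 3p and 50.4% or 50.2% with 5p.

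Counts of genes called against scr with SP, 3p, 5p and SATS were 1, 1, 2 and 0 without the block, 123, 47, 391 and 436 with it, 134, 50, 397 and 550 by edgeR with it and 21, 8, 66 and 3 by DESeq2, and 66 by edgeR with the block over 3 sets. With the block and 1 library left out they ranged from 6 to 192, 2 to 72, 20 to 528 and 3 to 722, lowest without scr of set 3 for SP, 3p and 5p and without SATS of set 3 for SATS (4 without scr of set 2 and 8 without scr of set 3). With 2 libraries a group, and 82 to 301 *Stag1* reads in set 1, small differences were not detectable.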
